A study of Homo sapiens with 12 samples.

Results

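The genes described are 10 of the Notch pathway and the ID family in human induced neurons: the ligands DLL1 and JAG1, the receptors NOTCH1, NOTCH2 and NOTCH3, the target HES1, and the inhibitors ID1, ID2, ID3 and ID4. The genes were named by symbol, and each was found as 1 transcript in the deposited counts, so that 10 of the 10 genes and 10 of the 19972 transcripts were followed. All 10 passed the filter on low counts in the RNA, footprint and translational efficiency fits.

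Notch signalling passes between neighbouring cells. A ligand on one cell, such as DLL1 or JAG1, binds a NOTCH receptor on the next, the receptor is cut by ADAM proteases and then by gamma-secretase, and its freed intracellular part joins RBPJ and a MAML protein in the nucleus to switch on genes such as HES1, a repressor that holds back neuronal differentiation. The ID proteins also hold back differentiation, by binding E proteins such as TCF3, TCF4 and TCF12 and keeping them from pairing with proneural factors, among them NEUROG2. BMP signalling, through SMAD1, SMAD5 and SMAD9, is a known activator of ID genes.

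The neurons were derived from H1, a human embryonic stem cell line, through overexpressed Ngn2, a proneural transcription factor, and were 14 days in vitro. One group was homozygous for an LLPH allele labelled Nterm (Nterm/Nterm), and the other was wild type at LLPH (wt/wt); each genotype has 3 libraries of each assay. RNA-seq measured polyA RNA. Ribo-seq counted footprints, the mRNA fragments that ribosomes protect from RNase A and RNase T1. The groups shared Ngn2 overexpression, doxycycline at 2 µg/mL, cytosine arabinoside, an inhibitor of dividing cells, at 4 µM in the medium of days 5 and 10, the absence of added glia, and cycloheximide at 100 µg/mL at harvest. What Nterm changes in LLPH, and whether each genotype came from 1 clone or several, are not given in the sources used here. The labels do not call the replicates separate cultures, and p-values therefore reflect the spread of these libraries alone, which may be technical.

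The RNA libraries held 18944427 to 21478215 counts in Nterm/Nterm cells and 21834425 to 25089790 in wt/wt cells. The footprint libraries held 12652833 to 15177310 counts in Nterm/Nterm cells and 13155130 to 16356419 in wt/wt cells. Genotypes follow the sample titles, because the genotype tag of the 6 Ribo-seq samples names the opposite genotype. With the tag, every footprint direction given here would turn round. LLPH itself had 611, 603 and 630 RNA counts in Nterm/Nterm cells and 676, 627 and 687 in wt/wt cells. Scaled to library size these were 30.8, 31.7 and 29.4 CPM in Nterm/Nterm cells and 27.2, 28.7 and 27.4 CPM in wt/wt cells, which did not overlap and did not pass the test (log2 change 0.14 ± 0.06, edgeR adjusted p = 0.135). Its footprint counts were 39, 22 and 36 in the libraries titled Nterm/Nterm, below the 88, 135 and 98 in those titled wt/wt. Grouped by the titles, LLPH footprints had a log2 change of -1.60 ± 0.19 (edgeR adjusted p = 1.77e-05). Of 15 neuron markers, 15 matched a named transcript and none was at 0. No matched marker of the other cell types listed below was at 0 either, so this does not identify the cell type.

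In RNA, 7 of the 10 genes were lower in Nterm/Nterm than in wt/wt neurons: NOTCH1, NOTCH2, NOTCH3, JAG1, HES1, ID1 and ID3. ID4 was higher, and ID2 and DLL1 did not pass the test (edgeR quasi-likelihood test, Benjamini-Hochberg adjusted p under 0.05). The 8 calls stand beside 17.9% of the 14659 transcripts tested, with 10.6% called lower and 7.25% called higher. The median log2 change of the 10 genes was -0.41, against 0.00 over all transcripts tested. In footprints the same 7 genes were lower, and ID2 and ID4 were both higher. Those 9 calls stand beside 13.3% of 13566 transcripts, with 8.91% lower and 4.36% higher, and the median log2 change was -0.36, against 0.01 over all transcripts. RNA values of the genotypes did not overlap for 9 genes, which 36.2% of all transcripts tested also showed, and footprint values did not overlap for 8, as for 30.7% of all transcripts. In bulk RNA, fewer cells that express a gene and less of its RNA per cell cannot be told apart.

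The count of genes called among the 10 was 6 to 9 in RNA when each RNA library was left out, and 9 with the replicate number as a block, a fit that the RNA libraries warrant because same-numbered libraries deviated together. In footprints it was 5 to 9, with 5 when wt/wt library 1 was left out. The call counts over all RNA transcripts were 841, 964 and 1729 without wt/wt library 1, wt/wt library 2 and Nterm/Nterm library 3, against 2624 with all libraries and 4504 with the block. The footprint counts were 954, 978 and 965 without the libraries of the same genotypes and numbers, against 1800 with all.

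**Figure D1:**
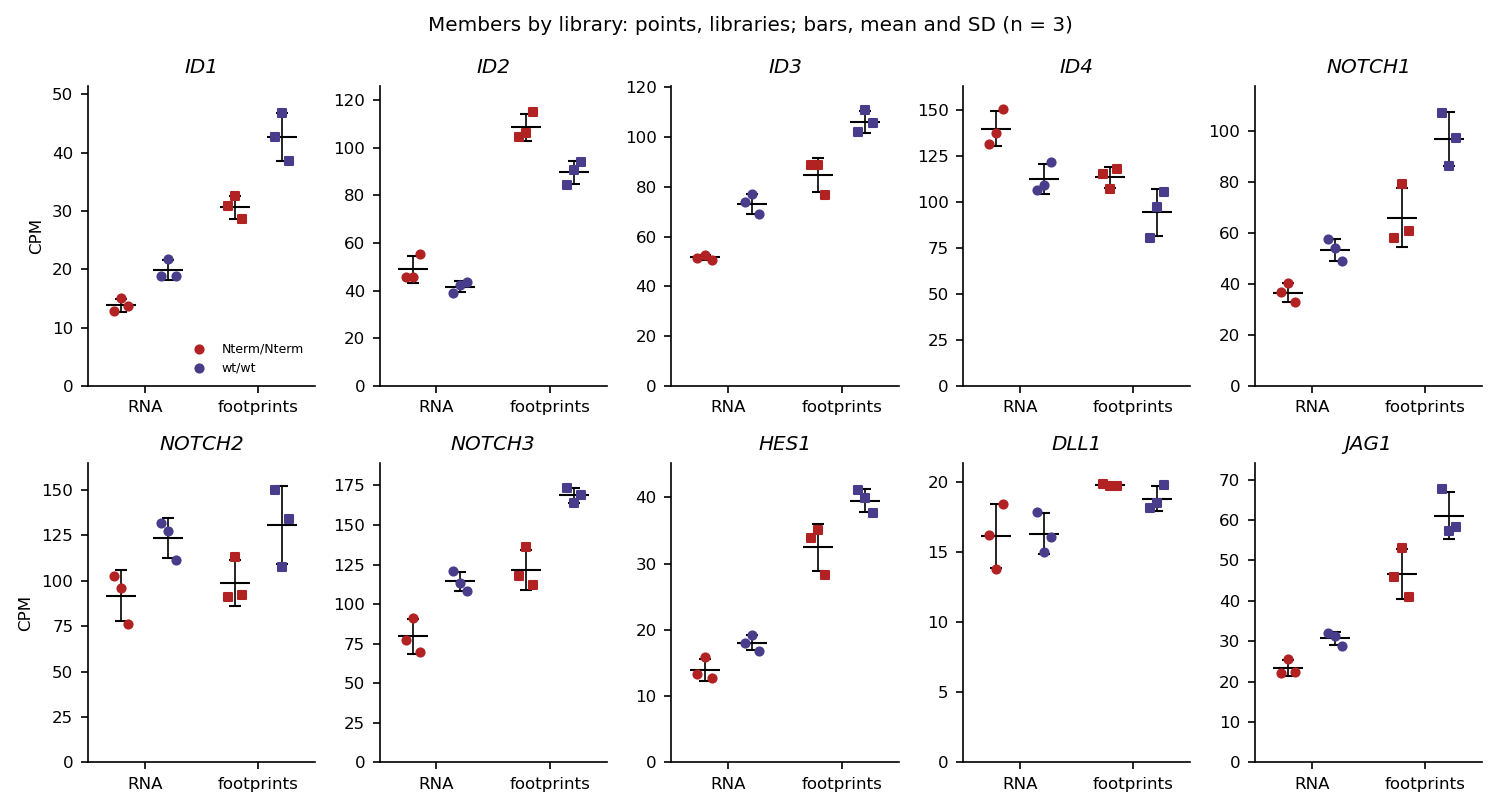
Level of each gene in CPM (counts scaled to library size) in every RNA library (circles) and footprint library (squares), with Nterm/Nterm left of wt/wt and the mean and SD of 3 libraries as bars; each panel has its own axis from 0. The 3 NOTCH panels and the ID1, ID3, HES1 and JAG1 panels have Nterm/Nterm means below wt/wt means in both assays, while ID2 and ID4 have them above.

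All 3 receptors were lower in Nterm/Nterm neurons in both assays. NOTCH1, a receptor known for keeping neural progenitors undifferentiated, had 36.7, 40.3 and 32.7 CPM of RNA in Nterm/Nterm libraries and 57.4, 54.0 and 48.8 CPM in wt/wt libraries. Every Nterm/Nterm library was below every wt/wt library. RNA of NOTCH1 was 31.6% lower in the fit, a log2 change of -0.55 ± 0.08 (SE; edgeR adjusted p = 0.00131). Its footprints stood at 58.0, 79.1 and 60.8 CPM in Nterm/Nterm cells and 106.9, 86.1 and 97.1 CPM in wt/wt cells. Here too the genotypes did not overlap, and Nterm/Nterm library 2 came closest to wt/wt, to library 2 there. The footprint change of NOTCH1 was -0.55 ± 0.10 on the log2 scale (edgeR adjusted p = 0.000982).

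NOTCH3, a receptor also prominent in smooth muscle and pericytes, had 77.5, 91.4 and 70.0 CPM of RNA in Nterm/Nterm libraries, against 121.0, 113.5 and 108.6 CPM in wt/wt libraries. The genotypes were apart, and the log2 change was -0.52 ± 0.08 (edgeR adjusted p = 0.00155). Footprints of NOTCH3 measured 117.5, 135.8 and 111.8 CPM in Nterm/Nterm cells and 173.4, 163.7 and 168.8 CPM in wt/wt cells. Of the 10 genes, NOTCH3 had the lowest adjusted p in footprints, 0.000261 (edgeR), for a log2 change of -0.47 ± 0.07.

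NOTCH2, which has near-identical partial copies in the NOTCH2NL genes, is uncertain to the extent that the counting shared reads among them. Its RNA reached 102.8, 96.2 and 76.0 CPM in Nterm/Nterm libraries and 131.8, 127.4 and 111.3 CPM in wt/wt libraries. Library 3 was the lowest of each genotype, and the genotypes did not overlap. The RNA change was -0.43 ± 0.09 on the log2 scale (edgeR adjusted p = 0.00964). In footprints, NOTCH2 had 90.7, 113.1 and 92.2 CPM in Nterm/Nterm cells and 149.8, 107.5 and 134.2 CPM in wt/wt cells. Nterm/Nterm library 2 was above wt/wt library 2, so the genotypes overlapped, and the fitted log2 change was -0.40 ± 0.10 (edgeR adjusted p = 0.0109). Without wt/wt RNA library 1 or 2 the adjusted p of the RNA change was 0.0619 or 0.0503, and without Nterm/Nterm or wt/wt footprint library 1 that of the footprint change was 0.0563 or 0.0908 (edgeR).

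The ligands parted. JAG1, a ligand of the Serrate type, had 22.2, 25.6 and 22.3 CPM of RNA in Nterm/Nterm libraries and 32.0, 31.3 and 28.9 CPM in wt/wt libraries. No Nterm/Nterm library reached the lowest wt/wt library, and RNA was 24.1% lower in the fit, with a log2 change of -0.40 ± 0.08 (edgeR adjusted p = 0.00503). JAG1 footprints came to 46.0, 53.1 and 40.9 CPM in Nterm/Nterm cells and 67.7, 57.2 and 58.2 CPM in wt/wt cells. They were apart too, with a log2 change of -0.39 ± 0.09 (edgeR adjusted p = 0.00710).

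DLL1, a Delta-type ligand that newly formed neurons show to progenitors, gave 16.2, 13.8 and 18.4 CPM of RNA in Nterm/Nterm libraries and 17.9, 15.0 and 16.0 CPM in wt/wt libraries. These ranges overlapped, and the log2 change was -0.01 ± 0.11 (edgeR adjusted p = 0.945). Its sign turned to 0.09 without Nterm/Nterm library 2 and to 0.06 without wt/wt library 1. DLL1 footprints were 19.9, 19.7 and 19.7 CPM in Nterm/Nterm cells and 18.1, 18.5 and 19.8 CPM in wt/wt cells, which also overlapped. Their log2 change was 0.07 ± 0.10 (edgeR adjusted p = 0.676). A p that misses the threshold does not show that DLL1 was the same in both genotypes.

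HES1 is the member that lies downstream of the receptors. The stretch just before its transcription start is shown because it holds the letters of both RBPJ and HES1 sites; in mouse, both proteins are known to act on this promoter. Capitals mark the RBPJ core TGGGAA and the N-box CACNAG, searched on both strands, in RefSeq sequence of GRCh38.p14 at chr3:194135958-194136147, plus strand.
HES1: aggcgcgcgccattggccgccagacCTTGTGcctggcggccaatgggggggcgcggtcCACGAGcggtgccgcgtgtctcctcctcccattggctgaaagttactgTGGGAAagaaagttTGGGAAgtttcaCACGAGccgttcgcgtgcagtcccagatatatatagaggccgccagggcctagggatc
The RBPJ core occurs in 24.0% of 35116 RefSeq promoters of 300 bases, and at 2 or more places in 3.80% of them. Of the 9 member promoters in the table, HES1 was the 1 that held it. The N-box letters occur in 38.0% of all promoters and in 5 of the 9, those of HES1, ID1, NOTCH1, NOTCH2 and NOTCH3. Such matches describe letters and are no evidence of binding.

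HES1 RNA stood at 13.3, 15.9 and 12.8 CPM in Nterm/Nterm libraries and at 18.1, 19.2 and 16.9 CPM in wt/wt libraries. The genotypes were apart, with a narrow gap between Nterm/Nterm library 2 and wt/wt library 3. RNA of HES1 was 22.5% lower in the fit, a log2 change of -0.37 ± 0.10 (edgeR adjusted p = 0.0216). HES1 footprints stood at 34.0, 35.1 and 28.4 CPM in Nterm/Nterm cells and at 41.1, 39.9 and 37.7 CPM in wt/wt cells. They did not overlap, and the log2 change was -0.29 ± 0.09 (edgeR adjusted p = 0.0335). Both calls were the least stable of the 7 lower genes. The RNA call was lost without Nterm/Nterm library 1 or 3 or wt/wt library 1 or 2 (edgeR adjusted p = 0.0709, 0.0613, 0.0818 and 0.101), and the footprint call without the libraries of the same genotypes and numbers (0.0509, 0.215, 0.0995 and 0.101) and with DESeq2 (0.0513).

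The 4 ID genes parted into pairs, ID1 and ID3 lower and ID2 and ID4 at higher mean levels in Nterm/Nterm neurons. Their promoters are shown so that the pairs can be set side by side: the 100 bases before each transcription start from RefSeq, GRCh38.p14, with the CCAAT box (CCAAT) and the TATA box (TATAAA), on either strand, in capitals. The positions are chr20:31605189-31605288 (ID1, plus strand), chr1:23559502-23559601 (ID3, minus strand), chr2:8681956-8682055 (ID2, plus strand) and chr6:19837270-19837369 (ID4, plus strand).
ID1: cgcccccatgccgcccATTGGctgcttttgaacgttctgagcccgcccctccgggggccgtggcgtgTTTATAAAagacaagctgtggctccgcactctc
ID3: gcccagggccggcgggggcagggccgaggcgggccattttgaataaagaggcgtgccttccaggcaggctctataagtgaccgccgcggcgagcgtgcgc
ID2: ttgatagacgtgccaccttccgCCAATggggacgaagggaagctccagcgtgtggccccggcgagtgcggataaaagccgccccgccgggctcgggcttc
ID4: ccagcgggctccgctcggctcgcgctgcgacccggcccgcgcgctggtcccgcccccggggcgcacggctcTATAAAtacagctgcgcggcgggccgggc
In ID1 the TATA box overlaps its own match on the other strand. Over the full 300 bases the CCAAT letters occurred in ID1, ID2 and ID4, and in 34.6% of all promoters, and the TATA letters in ID1 and ID4, and in 11.5% of all promoters. Neither motif separated ID1 and ID3 from ID2 and ID4.

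ID1 RNA reached 12.8, 15.0 and 13.6 CPM in Nterm/Nterm libraries and 18.9, 21.8 and 18.8 CPM in wt/wt libraries. The genotypes were apart, and RNA was 30.3% lower in the fit, with a log2 change of -0.52 ± 0.09 (edgeR adjusted p = 0.00313). Footprints of ID1 came to 30.7, 32.6 and 28.6 CPM in Nterm/Nterm cells and to 42.7, 46.8 and 38.6 CPM in wt/wt cells. They were apart as well, at a log2 change of -0.48 ± 0.09 (edgeR adjusted p = 0.00107).

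ID3 RNA was 51.6, 52.8 and 50.7 CPM in Nterm/Nterm libraries, a narrow range, and 73.7, 77.0 and 68.9 CPM in wt/wt libraries. Of the 10 genes, ID3 had the lowest adjusted p in RNA, 0.000244 (edgeR), at a log2 change of -0.50 ± 0.05, or 29.4% lower. ID3 footprints were 88.9, 88.7 and 76.8 CPM in Nterm/Nterm cells and 102.1, 110.7 and 105.5 CPM in wt/wt cells. Without overlap, the footprint change was 20.2% downward, -0.33 ± 0.07 on the log2 scale (edgeR adjusted p = 0.00489).

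ID2, whose counts could be shared with its processed pseudogene ID2B, had 45.9, 45.6 and 55.4 CPM of RNA in Nterm/Nterm libraries and 39.0, 42.5 and 43.8 CPM in wt/wt libraries. Nterm/Nterm library 3 was the highest, and the genotypes did not overlap. The RNA log2 change of 0.23 ± 0.08 missed the threshold (edgeR adjusted p = 0.0578), and with the replicate number as a block it was 0.23 with adjusted p = 0.0019. It also passed with DESeq2 (adjusted p = 0.0455), without a filter on low counts (edgeR adjusted p = 0.0441) and without Nterm/Nterm library 2 (edgeR adjusted p = 0.0378); over all alternatives the adjusted p ran from 0.0019 to 0.239. ID2 footprints were 104.3, 106.2 and 115.0 CPM in Nterm/Nterm cells and 84.3, 90.6 and 94.0 CPM in wt/wt cells. They did not overlap and were higher by a log2 change of 0.28 ± 0.07 (edgeR adjusted p = 0.0111), which missed the threshold without Nterm/Nterm library 3 (0.0648) or wt/wt library 1 (0.0710).

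ID4, the member of the family that in mouse is known to keep neural progenitors dividing, had 131.9, 137.8 and 150.5 CPM of RNA in Nterm/Nterm libraries and 106.4, 109.6 and 121.9 CPM in wt/wt libraries. The genotypes did not overlap, and library 3 was the highest of each. ID4 RNA was 24.4% higher in the fit, a log2 change of 0.31 ± 0.06 (edgeR adjusted p = 0.00560). Its footprints were 115.3, 107.3 and 118.2 CPM in Nterm/Nterm cells and 80.7, 97.2 and 105.5 CPM in wt/wt cells. Nterm/Nterm library 2 lay just above wt/wt library 3, and the log2 change was 0.27 ± 0.08 (edgeR adjusted p = 0.0369). That call was lost without Nterm/Nterm library 1 or 3 or wt/wt library 1 or 2 (edgeR adjusted p = 0.0981, 0.103, 0.224 and 0.0766), with a log2 change of 0.15 without wt/wt library 1.

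Because the scaling cancels in a ratio of 2 genes of 1 library, the split was also read within libraries, as raw counts of one ID gene over another; these 4 ratios were chosen after the values were seen. ID3 counts in RNA were 0.391, 0.383 and 0.337 of ID4 counts in Nterm/Nterm libraries and 0.693, 0.702 and 0.565 in wt/wt libraries. ID1 counts were 0.279, 0.329 and 0.246 of ID2 counts in Nterm/Nterm libraries and 0.485, 0.513 and 0.430 in wt/wt libraries. Neither ratio overlapped between the genotypes, in RNA or in footprints. Since each pairs a gene seen to be lower with one seen to be at a higher mean level, this restates the split in other units and is no test of it. In contrast, ID1 over ID3 in RNA was 0.249, 0.285 and 0.269 in Nterm/Nterm libraries and 0.256, 0.283 and 0.273 in wt/wt libraries. That ratio overlapped in both assays, as did ID2 over ID4. The ratios speak of unequal change and do not say which gene of a ratio moved.

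**Figure D2:**
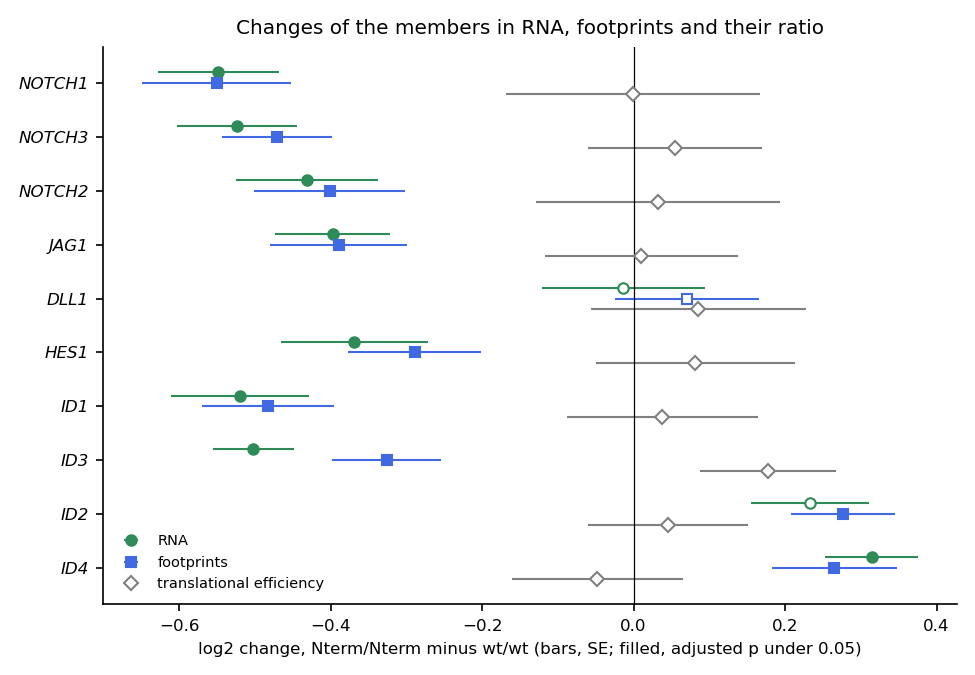
Fitted log2 change, Nterm/Nterm minus wt/wt, of each gene in RNA (circles), footprints (squares) and translational efficiency (diamonds), with SE as bars and filled symbols where the adjusted p was under 0.05. The RNA and footprint symbols of 7 genes lie between -0.55 and -0.29, those of ID2 and ID4 between 0.23 and 0.31, and no translational efficiency symbol is filled.

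For translational efficiency, meaning footprints per unit of RNA, no difference between genotypes was called for any of the 10 genes. The count was 0 in the assay by genotype interaction fit, beside 0.0203% of 14786 transcripts, 3 in all (edgeR adjusted p under 0.05; 0.00676% higher and 0.0135% lower). At an unadjusted p under 0.05 the count was 0 of the 10 genes and 4.60% of all transcripts, and DESeq2, which called 27 transcripts, gave no adjusted p for any member. Log2 changes of the 10 genes ran from -0.05 (ID4) to 0.18 (ID3), with a median of 0.04. Their SEs were 0.09 to 0.17. After adjustment over 14786 transcripts, a call takes a change well above its SE. Differences larger than these SEs could therefore have been missed in each gene.

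ID3 had the lowest unadjusted p in that fit. Its footprint to RNA ratio, taken from libraries of the same number, was 1.72, 1.68 and 1.52 in Nterm/Nterm cells and 1.38, 1.44 and 1.53 in wt/wt cells. Pairing by number is uncertain in wt/wt cells, and so are the spread and overlap of wt/wt ratios here and below. Library 3 of the 2 genotypes crossed, so the values overlapped, and the log2 change was 0.18 ± 0.09 (unadjusted p = 0.0618, edgeR adjusted p = 1.00). In the authors' deposited table the ID3 ratio was 1.569 in Nterm/Nterm cells and 1.401 in wt/wt cells, with an unadjusted p of 0.0827. None of the 10 genes had a p under 0.05 in the authors' deposited table, against 4.67% of its 10932 transcripts.

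The genes differed among themselves in this ratio. It took no account of transcript length or of the part of a transcript counted, so differences between genes are descriptive. HES1 had a mean ratio of 2.33 ± 0.200 in Nterm/Nterm cells and 2.19 ± 0.101 in wt/wt cells (SD, n = 3), while ID4 had 0.813 ± 0.0532 and 0.837 ± 0.0688. In wt/wt cells the order ran HES1, ID1, ID2, JAG1, NOTCH1, NOTCH3, ID3, DLL1, NOTCH2 and ID4. Neighbours in that order overlapped between wt/wt libraries except at ID2 above JAG1, NOTCH1 above NOTCH3 and ID3 above DLL1. In Nterm/Nterm cells the means of ID1 and ID2, and those of NOTCH3 and ID3, stood in the opposite order. There NOTCH1 and NOTCH3 overlapped, and NOTCH2 lay above ID4 without overlap. In the authors' deposited table, HES1 in wt/wt cells was at the 90.4th percentile of all transcripts and ID4 at the 31.4th. ID1 and ID2, which went opposite ways in level, had ratios of 2.22 and 2.23 in Nterm/Nterm cells and of 2.15 each in wt/wt cells.

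**Figure D3:**
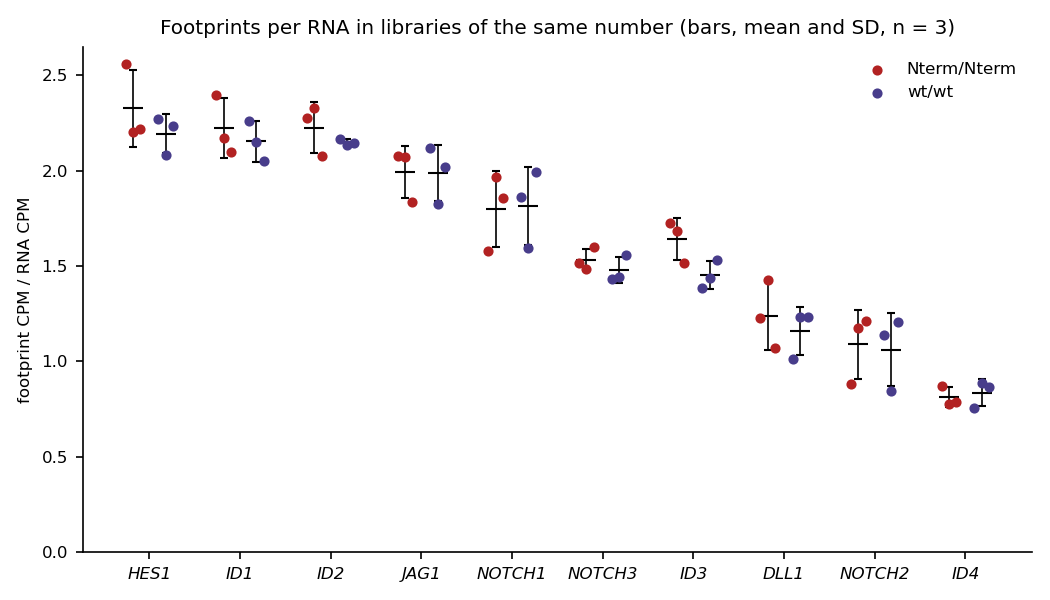
Footprint CPM divided by RNA CPM in libraries of the same number, Nterm/Nterm left of wt/wt, with mean and SD of 3 libraries as bars and genes ordered by the wt/wt mean. The points of the genotypes overlap for every gene, from HES1 with means above 2 to ID4 with means of 0.813 and 0.837. Pairing by number is uncertain for the wt/wt libraries.

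Further genes of the pathway were taken from lists of related genes, of which 71 of 99 entries matched a named transcript; NOTCH4 did not. In RNA, 12 of the 69 tested were lower and 5 higher, 17.4% and 7.25%, beside 10.6% and 7.25% of all transcripts. In footprints 6 of 69 were lower and 1 higher, 8.70% and 1.45%, beside 8.91% and 4.36%. The replicate block called 29 of the 69 in RNA, or 42.0%, beside 30.7% of all transcripts. By direction, 15 were lower and 14 higher, 21.7% and 20.3%, beside 16.4% and 14.3%. Of 4 further ligands tested, DNER, a neuronal ligand related to Delta, was higher in RNA. It had 131.4, 144.8 and 154.8 CPM in Nterm/Nterm libraries and 118.3, 125.4 and 130.2 CPM in wt/wt libraries, which came close without overlapping (log2 change 0.21 ± 0.06, edgeR adjusted p = 0.0340). That call was lost without Nterm/Nterm library 2 or 3 or wt/wt library 1 or 2. In footprints edgeR and DESeq2 each called 0 of the 4, with 2 and 1 at an unadjusted p under 0.05, and edgeR called 1 without a filter and 2 without wt/wt library 3.

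Of 23 genes that process, glycosylate or turn over Notch proteins, 4 were lower in RNA and 0 higher, with a median log2 change of -0.06; 10.6% of all transcripts were lower and 7.25% higher. FURIN, the protease that makes the first cut in the receptor, had 103.0, 108.4 and 95.8 CPM in Nterm/Nterm libraries and 128.3, 125.1 and 118.1 CPM in wt/wt libraries. Without overlap, its log2 change was -0.28 ± 0.05 in RNA and -0.34 ± 0.08 in footprints (edgeR adjusted p = 0.00560 and 0.00877). NCSTN, a subunit of gamma-secretase, changed by -0.23 ± 0.05, POFUT1, which adds fucose to the receptor, by -0.20 ± 0.06, and ADAM10, the protease of the second cut, by -0.14 ± 0.04 in RNA (log2; edgeR adjusted p = 0.0104, 0.0278 and 0.0379). ADAM17, a related protease, was called in footprints, at -0.22 ± 0.07 (edgeR adjusted p = 0.0459). With the replicate block, 10 of the 23 were called in RNA, 6 lower and 4 higher, beside 16.4% lower and 14.3% higher over all transcripts in that fit. The RNA count was 2, 1 and 1 without Nterm/Nterm library 3, wt/wt library 1 and wt/wt library 2, and FURIN was the gene called in every RNA fit. In footprints 2 of 21 were called lower, with counts of 1 by DESeq2 and of 1, 0, 1 and 0 without Nterm/Nterm library 1 or 3 or wt/wt library 1 or 2.

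Among 18 genes of the nuclear complex and its co-repressors, 2 were lower and 2 higher in RNA, beside 10.6% and 7.25% of all transcripts. MAML2, a coactivator of the cut receptor, had 13.3, 14.2 and 13.8 CPM in Nterm/Nterm libraries and 22.0, 22.6 and 19.4 CPM in wt/wt libraries. Those values were well apart, at a log2 change of -0.63 ± 0.08, and footprints changed by -0.49 ± 0.13 (edgeR adjusted p = 0.000763 and 0.0128). MAML3, its relative, was higher in RNA by a log2 change of 0.18 ± 0.05 (edgeR adjusted p = 0.0386). The Groucho-type co-repressors TLE3 and TLE4 moved apart, by -0.20 ± 0.05 and 0.28 ± 0.05 in RNA (edgeR adjusted p = 0.0161 and 0.00437). TLE4 was also higher in footprints, by 0.40 ± 0.07 (edgeR adjusted p = 0.00128). RBPJ, the DNA-binding partner, had a log2 change of 0.14 ± 0.05 in RNA and missed the threshold (edgeR adjusted p = 0.0735), but passed with the block, which called 7 of the 18, 5 higher and 2 lower, beside 14.3% and 16.4% of all transcripts (RBPJ adjusted p = 0.0042, and 0.0042 to 0.249 over all alternatives). Without wt/wt RNA library 1 or 2 the count was 2, with MAML3 and TLE3 lost, while MAML2 and TLE4 were called in RNA under every alternative. MAML3 was also lost without Nterm/Nterm library 1 or 3. In footprints 2 of the 18 were called, MAML2 and TLE4, and 1 without Nterm/Nterm library 3 or wt/wt library 1.

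Of 4 further HES and HEY genes tested, HES2 was lower in RNA, with 78.0, 84.8 and 69.9 CPM in Nterm/Nterm libraries and 92.9, 97.3 and 88.3 CPM in wt/wt libraries. These values were apart (log2 change -0.26 ± 0.07, edgeR adjusted p = 0.0185), and the call was lost without Nterm/Nterm library 1 or wt/wt library 1 or 2. HEY1, like HES1 a known Notch target, had 13.1, 16.0 and 14.1 CPM in Nterm/Nterm libraries and 12.1, 11.8 and 11.6 CPM in wt/wt libraries, and was named after its values were seen. It lay above wt/wt in every library, opposite to HES1, with a log2 change of 0.28 ± 0.09 that missed the threshold (edgeR adjusted p = 0.0612) and passed with the block (0.0252, and 0.0252 to 0.176 over all alternatives) and without Nterm/Nterm library 1. HES4 and HES6 had log2 changes of -0.14 and 0.14 and were not called, and edgeR and DESeq2 called 0 of the 4 in footprints, with 0 at an unadjusted p under 0.05.

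Among the 5 E proteins and proneural factors tested in RNA, 2 were lower, as were 10.6% of all transcripts. NEUROD1, which was called under every alternative in both assays, is a proneural factor that acts after NEUROG2. It had 9.59, 10.8 and 7.56 CPM in Nterm/Nterm libraries and 16.8, 13.5 and 14.7 CPM in wt/wt libraries. It did not overlap, and its log2 change was -0.70 ± 0.13 in RNA and -0.59 ± 0.13 in footprints (edgeR adjusted p = 0.00427 and 0.00448). TCF4, an E protein and ID partner, was lower in RNA by a log2 change of -0.20 ± 0.06 (edgeR adjusted p = 0.0442), a call lost with DESeq2 and without Nterm/Nterm library 1 or 3 or wt/wt library 1 or 2. TCF3 and TCF12, the other E proteins, had log2 changes of -0.04 and -0.10 and were not called.

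Of 15 genes of BMP signalling, 3 were lower and 2 higher in RNA, beside 10.6% and 7.25% of all transcripts, with a median log2 change of -0.03. With the replicate block 4 were lower and 3 higher, beside 16.4% and 14.3% of all transcripts. FST, a secreted antagonist of activins and some BMPs, had 6.412, 8.086 and 6.069 CPM in Nterm/Nterm libraries and 11.94, 11.03 and 10.62 CPM in wt/wt libraries. It was apart in every library, at a log2 change of -0.71 ± 0.12 in RNA and -0.81 ± 0.14 in footprints (edgeR adjusted p = 0.00309 and 0.000780). The ligand BMP7 changed by -0.41 ± 0.07 and the type I receptor ACVR1 by -0.37 ± 0.06 in RNA (edgeR adjusted p = 0.00363 and 0.00311). The type II receptors ACVR2A and ACVR2B were both higher, each by a log2 change of 0.16 (edgeR adjusted p = 0.0309 and 0.0285). SMAD1, SMAD5 and SMAD9, the carriers of the BMP signal, had log2 changes of -0.08, -0.05 and -0.08 in RNA and were not called. In footprints SMAD5 had a log2 change of -0.22 ± 0.08 that missed the threshold (edgeR adjusted p = 0.0610). It passed with the replicate block, without a filter on low counts and without Nterm/Nterm library 2 (0.0221 to 0.273 over all alternatives). SMAD1 and SMAD9 were called in no footprint fit. In RNA the count was 3 without wt/wt library 1 or 2, when both type II receptors were lost; ACVR2A was lost as well without Nterm/Nterm library 2, and ACVR2B without Nterm/Nterm library 3 or wt/wt library 3. In footprints FST and ACVR1 were called, and FST alone without Nterm/Nterm library 3 or wt/wt library 1 or 2. In translational efficiency edgeR called 0 of the 71 genes of these lists, with 2 at an unadjusted p under 0.05.

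**Figure D4:**
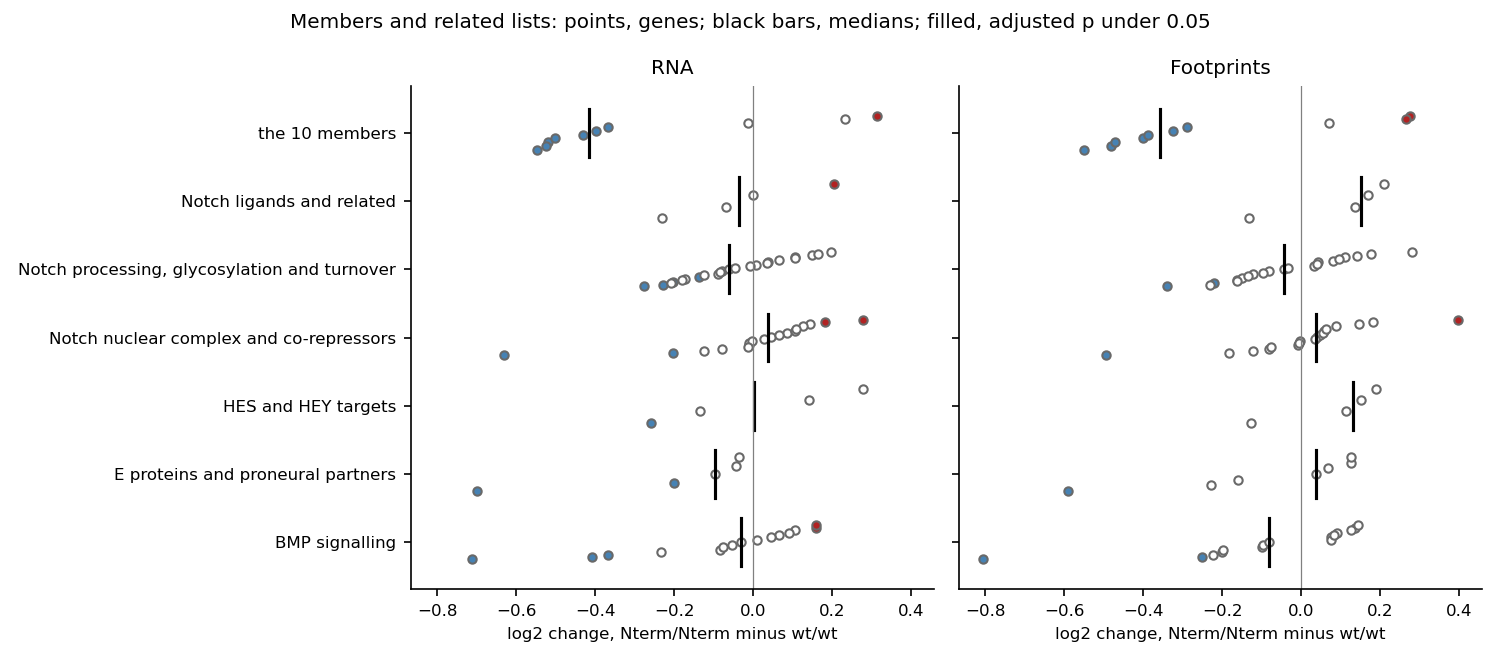
Log2 change, Nterm/Nterm minus wt/wt, of the 10 genes (top row) and of the related lists in RNA (left) and footprints (right), with a point per gene, filled where the adjusted p was under 0.05 (blue lower, red higher), and the list median as a black bar. The median of the 10 genes is -0.41 in RNA and -0.36 in footprints, and the list medians lie between -0.10 and 0.15.

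Marker lists of several cell types were read beside the 10 genes; over all transcripts, 10.6% were lower and 7.25% higher in RNA, and 8.91% and 4.36% in footprints. Of 20 mesenchymal markers, 12 matched a named transcript, 10 of them were lower and 1 higher in RNA, and their summed level was 4056 to 5204 CPM in Nterm/Nterm libraries and 5786 to 6970 CPM in wt/wt libraries. Of 15 neural progenitor markers, 9 matched, 5 were lower and 1 higher, and the sum was 1015 to 1164 CPM in Nterm/Nterm libraries and 1242 to 1351 CPM in wt/wt libraries. All 15 neuron markers matched, and 10 were higher, with sums of 19922 to 21679 CPM in Nterm/Nterm libraries and 17418 to 18716 CPM in wt/wt libraries. In footprints the mesenchymal sums overlapped, with 5501 to 7183 CPM in Nterm/Nterm libraries and 7014 to 8468 CPM in wt/wt libraries, and 6 of the 12 were lower. The progenitor sums overlapped too, with 1511 to 1727 CPM in Nterm/Nterm libraries and 1484 to 1780 CPM in wt/wt libraries; 4 of the 9 were lower and 1 higher, and the median log2 change was -0.06, against -0.36 in RNA. Of the neuron markers 4 were higher in footprints, with sums of 10546 to 10898 CPM in Nterm/Nterm libraries and 7776 to 9999.6 CPM in wt/wt libraries. The mesenchymal RNA count was 7 lower and 0 higher without wt/wt library 1 or 2, and 11 lower and 1 higher with the replicate block. The block called 6 progenitor markers lower and 1 higher in RNA. The neuron RNA count was 6, 6, 3 and 4 without Nterm/Nterm library 1 or 3 or wt/wt library 1 or 2. It was 13 without Nterm/Nterm library 2, 12 without wt/wt library 3, 12 with DESeq2 and 14 with the block. Over all transcripts the block called 16.4% lower and 14.3% higher. The neuron footprint count was 0, 1 and 3 without Nterm/Nterm library 1, 2 or 3. It was 0, 2 and 11 without wt/wt library 1, 2 or 3, and 10 without a filter on low counts. The progenitor footprint count fell to 1 lower without Nterm/Nterm library 3 or wt/wt library 2. Of 13 proliferation markers, 7 matched and 4 were lower (158 to 191 CPM in Nterm/Nterm libraries and 227 to 253 CPM in wt/wt libraries); that count was 2 without wt/wt library 1 or 2 and 6 with the block. Of 10 pluripotency markers 6 matched and 3 were lower; of 10 astroglial, neural crest and endothelial markers each, 4, 2 and 1 matched and 1, 1 and 0 were lower, and the astroglial and neural crest counts changed when single libraries were left out. No matched marker was at 0, and GFAP, PAX6, PDGFRA, PDGFRB, MKI67 and POU5F1 were among those not matched by name. The part of these cells in the changes of the 10 genes was not tested.

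Library by library, the mean deviation of the 7 lower genes in RNA, on the log2 scale from the mean of the 6 libraries, was -0.25, -0.11 and -0.35 in Nterm/Nterm libraries and 0.28, 0.29 and 0.14 in wt/wt libraries. The median mesenchymal marker deviated by -0.18, -0.11 and -0.53 in Nterm/Nterm libraries and by 0.35, 0.40 and 0.09 in wt/wt libraries. The median neural progenitor marker deviated by -0.04, -0.08 and -0.27 in Nterm/Nterm libraries and by 0.14, 0.17 and 0.08 in wt/wt libraries. In all 3 profiles Nterm/Nterm library 3 was the lowest and wt/wt library 2 the highest. The same held for the median proliferation (-0.27 and 0.26), astroglial (-0.29 and 0.17) and pluripotency (-0.26 and 0.21) markers. The order is therefore not particular to the mesenchymal and progenitor lists. ID2 and ID4, as a mean, deviated by 0.05, 0.08 and 0.28 in Nterm/Nterm libraries and by -0.22, -0.14 and -0.04 in wt/wt libraries, and Nterm/Nterm library 3 was the highest for them, as it was for the median neuron marker at 0.15. In footprints, where the 7 genes deviated by -0.24, -0.05 and -0.34 in Nterm/Nterm libraries and by 0.29, 0.16 and 0.18 in wt/wt libraries, the mesenchymal median was 0.01 in Nterm/Nterm library 2 and 0.00 in wt/wt library 2.

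**Figure D5:**
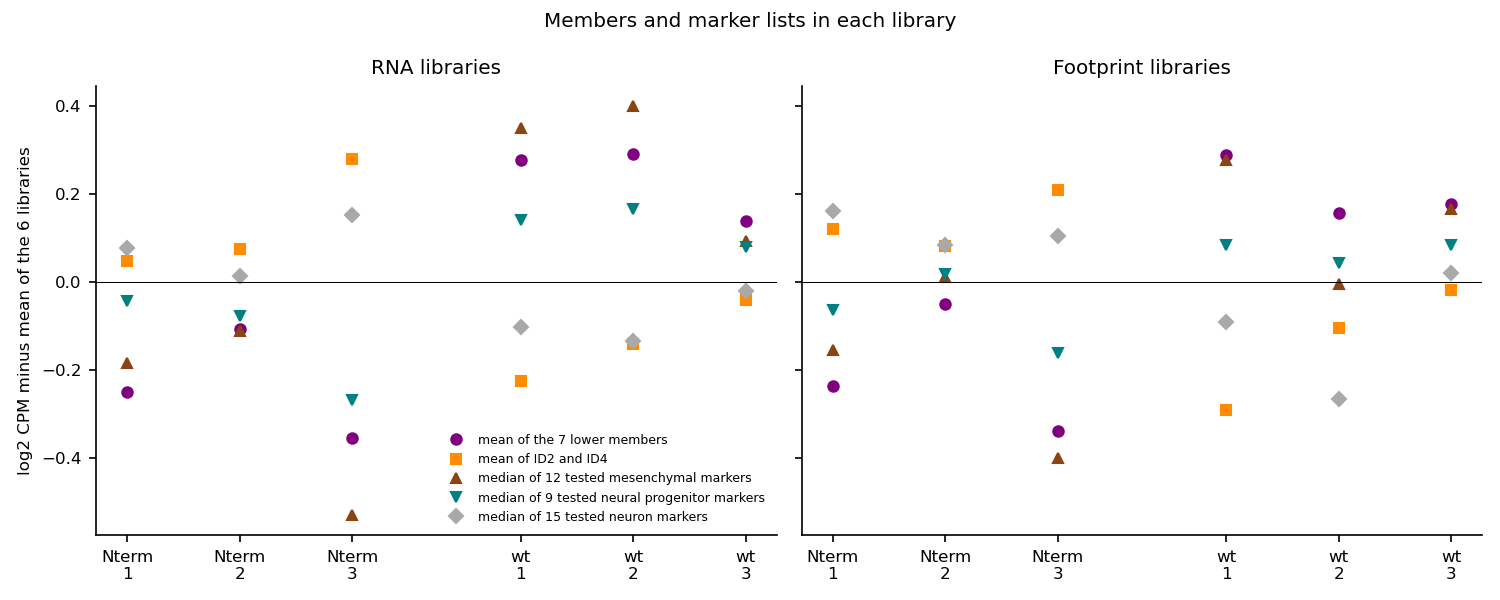
Deviation of log2 CPM from the mean of the 6 libraries of an assay, for the mean of the 7 lower genes, the mean of ID2 and ID4, and the medians of 3 marker lists, with RNA libraries left and footprint libraries right and Nterm/Nterm before wt/wt. The 7 genes and the mesenchymal and progenitor medians lie below 0 in every Nterm/Nterm RNA library and above 0 in every wt/wt RNA library.

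The transcripts whose RNA profile over the 6 libraries was most like the mean of the NOTCH receptors, among 10313 named transcripts of at least 10 CPM, were EPHA2, PTPRF, UACA, RREB1 and ACTN4, each with a Pearson r of 0.999. Those most like the mean of the 4 ID genes were PREX2, COMMD1, PAN2, TTC17 and PFKFB2, with r of 0.982, 0.974, 0.972, 0.970 and 0.968. Both lists are descriptions over 6 libraries that share genotype and scaling. The ID mean joins ID1 and ID3, which were lower, with ID2 and ID4, at higher mean levels, so it tracks neither pair. As log2 deviations it was nearly flat, at -0.127 to 0.003 in Nterm/Nterm libraries and 0.001 to 0.108 in wt/wt libraries. ACTN4 RNA averaged 276.6 ± 28.5 CPM in Nterm/Nterm libraries and 393.3 ± 27.6 CPM in wt/wt libraries (SD, n = 3).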

How the data were processed

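The deposited counts, whole numbers per Ensembl transcript that the authors did not normalise, cover 19972 transcripts in 12 libraries. The submitters' processing notes list, with no roles, Salmon 1.4.0, Bowtie2 2.3.4.3, UMI-tools 1.0.1, limma, edgeR and cutadapt 2.4, and the build GRCh37. The handling of reads with several matching transcripts is not stated there. The authors' deposited table of translational efficiency gives, per the file headers, mean footprint to RNA ratios per genotype, the ratio of these means and a p-value, which is unadjusted; it also supplied gene names, for 10872 transcripts, and 9100 stayed unnamed.

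Counts were fitted in R 4.3.3 by edgeR 4.0.16 (TMM factors, filterByExpr, quasi-likelihood F test, two-sided, Benjamini-Hochberg threshold 0.05 over all transcripts tested), on RNA and footprints apart, and for translational efficiency as an assay by genotype interaction in 1 model of the 12 libraries, scaled within assays. TMM scaling makes every change relative to the other transcripts. Values in CPM use TMM-scaled library sizes. Deviations of the marker lists, and the similarity and pairing correlations, add 0.5 CPM before the log. Deviations of the members add nothing. The SE is the log2 change over the square root of F. Fits were also run on simulated counts, with no outcome given here. In those counts same-numbered libraries did not deviate together, as the RNA libraries of these data did. Count totals per library are given above and limit low counts most.

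Replicate numbers come from the titles. Over 11695 transcripts with a mean count above 100, deviations of same-numbered RNA libraries of the 2 genotypes correlated at 0.218, 0.237 and 0.459, so the numbers were taken to pair RNA libraries; for footprints the values were 0.0237, 0.139 and 0.292, and they were not. RNA and footprint libraries of the same number correlated at 0.189, 0.380 and 0.456 in Nterm/Nterm cells and at 0.0320, 0.0829 and 0.262 in wt/wt cells. In wt/wt cells not every library correlated best with its own number, so pairing by number is uncertain there. Alternatives were RLE factors, DESeq2 1.42.0, no filter, the replicate block, the genotype tag and leaving out each library.

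The 10 genes, the lists and the tests were chosen with earlier results of these data known. Of each list, genes past the threshold were named, at most 5 per list and fit with at least 1 CPM; HEY1, HES4, HES6, RBPJ, TCF3, TCF12 and the SMAD genes were named for their roles after their values were seen. Promoters came from RefSeq (GRCh38.p14, 250 bases before to 50 after the start, 9 of 10 genes matched), not from the build of the counts.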

Additional observations from a re-analysis of the deposited data

How the results depend on the processing

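RLE factors kept the direction and the side of the threshold of all 10 genes in the RNA, footprint and translational efficiency fits; other settings changed the calls given in the report. The replicate block gave 4504 called transcripts in RNA, and 2317 in footprints, with the 9 member calls unchanged; for translational efficiency the block gave 20 called transcripts, none of them a member, and DESeq2 gave 27. The block changed no other member call than that of ID2 in RNA. Leaving out each library gave 841 to 2851 called transcripts in RNA and 954 to 2045 in footprints, and 5 to 9 called members in footprints; the RNA change of DLL1 ran from -0.12 to 0.085. Grouping by the genotype tag instead of the titles turned, by construction, every footprint change round, to 0.48 (ID1), -0.28 (ID2), 0.33 (ID3), -0.27 (ID4), 0.55 (NOTCH1), 0.40 (NOTCH2), 0.47 (NOTCH3), 0.29 (HES1), -0.071 (DLL1) and 0.39 (JAG1). Translational efficiency then had 4150 called transcripts, 9 members among them, with -0.51 for ID2, 1.10 for NOTCH1 and -0.057 for DLL1. With the titles, no member was called in translational efficiency, and signs near 0 turned: NOTCH1 was 0.0019 without a filter, and over the 12 fits without 1 library the log2 changes ran from -0.032 to 0.11 (ID1), -0.013 to 0.15 (ID2), -0.16 to 0.035 (ID4), -0.15 to 0.080 (NOTCH1), -0.098 to 0.13 (NOTCH2), -0.031 to 0.16 (NOTCH3), -0.014 to 0.19 (DLL1) and -0.093 to 0.098 (JAG1). The cause of these changes was not tested. Precision is limited by 3 libraries per group and by member counts of 237 to 3278 per library.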

Other observations

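NEUROG2, the human counterpart of the overexpressed factor, had few RNA counts beside its footprints, with 4.70, 3.47 and 4.34 CPM of RNA in Nterm/Nterm libraries and 3.86, 4.25 and 4.79 CPM in wt/wt libraries. Its footprints were 164.9, 161.7 and 159.8 CPM in Nterm/Nterm libraries and 146.5, 136.8 and 162.4 CPM in wt/wt libraries. Neither level passed the test (log2 changes -0.04 and 0.13, edgeR adjusted p = 0.888 and 0.253). NEUROG1 and NEUROG3, its relatives, were at 0 counts in all 6 RNA libraries. They had 20.5 to 23.5 and 42.3 to 47.2 CPM of footprints in Nterm/Nterm libraries, and 17.6 to 23.3 and 37.3 to 47.7 CPM in wt/wt libraries. These 3 genes were named after their values were seen. Whether the footprints counted for them came from their own mRNA was not tested. Ngn2 was overexpressed in these cells, and the handling of reads with several matching transcripts is not stated.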
